A study of Homo sapiens with 6 samples.

Results

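The EGFR family is described here through 10 genes chosen by name, out of 16306 genes in the gene table: the receptors EGFR, ERBB2 and ERBB3, the ligands AREG, EREG, TGFA, HBEGF, BTC and EGF, and the receptor inhibitor ERRFI1. All 10 were in the table and all 10 passed the filter on low counts, as did 12620 genes in all. They were measured by RNA-seq in PC9, a human lung adenocarcinoma cell line that carries an activating deletion in EGFR. RNA came from 3 libraries of cells with a negative control shRNA (sh-NC 1, 2 and 3) and 3 libraries of cells with an shRNA against the RNA-binding splicing factor RBM10 (shRBM10 A, B and C). The columns of B and C were placed in that group from the knockdown mark in their names alone. All 6 libraries therefore carry the EGFR deletion and an shRNA, and no drug is named in the labels. The study used 2 RBM10 shRNA sequences. The columns of all 3 shRBM10 libraries share the mark SH1, but those of B and C match no sample title. Which sequence each shRBM10 library carries is not given in the sources used here. The labels call the libraries of a group replicate biosamples and the study states in general that its experiments were repeated independently, but separate cultures are not named for these libraries, so p-values measure the spread between them, which may be technical in part. The comparison asks how the RNA of receptors and ligands differed once RBM10 was reduced.

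EGFR, ERBB2 and ERBB3 are receptor tyrosine kinases that signal as pairs. EGFR binds the ligands AREG, EREG, TGFA, HBEGF, BTC and EGF, which are made as membrane-bound precursors and cut free by ADAM proteases, while ERBB2 has no known ligand of its own and ERBB3, whose kinase is nearly inactive, binds neuregulins and relays signals to PI3K. ERRFI1 (MIG6) binds the kinase domain of EGFR and inhibits it, and its transcription follows EGFR and ERK activity, as does that of several ligands. In EGFR-mutant lung adenocarcinoma the receptor signals without ligand and is the target of tyrosine kinase inhibitors such as osimertinib.

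RBM10, the targeted gene, was lower in each shRBM10 library. Its counts scaled between libraries by the trimmed mean of M-values method (TMM), called normalized counts below, were 1431, 1183 and 1469 in sh-NC 1 to 3 and 537, 515 and 672 in shRBM10 A to C, a log2 fold change of -1.24 (SE 0.23, edgeR quasi-likelihood test with Benjamini-Hochberg adjusted p = 0.10). Libraries held between 16606390 and 18864243 estimated counts. The library sh-NC 2 stood apart from the others: its TMM factor was 0.738, against 1.03 to 1.08 in the other 5, and across genes its log2 levels correlated less with sh-NC 1 and 3 (Pearson r = 0.939 and 0.940, genes not being independent replicates) than those 2 did with each other (r = 0.991). Its difference from the mean of sh-NC 1 and 3 varied with transcript length. Over 5 bins of genes ordered by length the median log2 difference went from 0.70 in the shortest (75 to 2155 bases) through 0.28, -0.072 and -0.37 to -0.89 in the longest (5934 bases and over). Among the knockdown libraries, C differed from A and B along base composition, with a median log2 difference of -0.90 in the bin of lowest GC content (30.2% to 41.0%) and 0.44 in the highest (58.6% to 76.0%). The part of these trends in any result below was not tested. Members are therefore given with and without sh-NC 2, and the values with the dependence on GC content taken out of each library are given together below.

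Keratins and other epithelial markers were abundant, with 6 of 6 markers measured (EPCAM, CDH1, KRT7, KRT8, KRT18 and KRT19) and summed normalized counts of 550360 to 1019410 in sh-NC and 440569 to 652001 in shRBM10. Defining markers of the lung alveolar lineage were at or near 0, with at most 2 counts of NKX2-1, 3 of SFTPB and 1 of SFTPC in any library and NAPSA at 9 to 17, although PC9 is a lung adenocarcinoma line. The 4 lung markers in the table summed to 17.1 to 20.5 normalized counts in sh-NC and 11.5 to 13.4 in shRBM10. The extract protocol in the labels speaks of retinas, but of the 4 retinal markers read from the table CRX and PDE6B had at most 3 counts and 1 count, RPE65 had at most 9, and NRL had 64 to 115. The 5 leukocyte markers in the table summed to 2850 to 4126 normalized counts in sh-NC and 2960 to 3985 in shRBM10, nearly all from CD68 and CSF1R, with PTPRC at 0 to 7 counts and LYZ at 0 to 6. The 4 fibroblast and mesenchymal markers summed to 58.9 to 125 in sh-NC and 109 to 204 in shRBM10, mostly COL1A1, with COL3A1 at 0 or 1 count. The 5 endothelial markers summed to 99.96 to 188 in sh-NC and 49.3 to 69.9 in shRBM10, mostly CDH5, with KDR and TEK at 0 or 1 count. The part of these markers in the results was not tested.

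The members differed widely in abundance. On the deposited TPM scale, which takes transcript length into account, EGFR was the most abundant in sh-NC 1 and 3 at 95.0 and 103 TPM, followed by ERRFI1 at 61.6 and 62.1, HBEGF at 54.5 and 58.7, AREG at 36.3 and 37.4, ERBB2 at 35.5 and 35.9, ERBB3 at 28.3 and 28.7, and TGFA at 21.2 and 23.3 TPM. BTC at 4.33 and 4.25 TPM and EREG at 3.75 and 4.2 TPM did not separate, and neither did AREG and ERBB2 by more than the spread over the 3 controls. EGF was almost absent at 0.24 and 0.11 TPM. The order was not the same in sh-NC 2, where HBEGF led at 22.7 TPM, ERRFI1 followed at 18.5 and AREG at 17.1, and EGFR stood at 10.8, below ERBB2 at 14.6 and ERBB3 at 11.4 TPM. In shRBM10 A, the one knockdown library whose TPM column was used, EGFR again led at 117 TPM, with ERRFI1 at 80.1, HBEGF at 38.0, ERBB3 at 35.7, ERBB2 at 24.8, AREG at 16.2 and TGFA at 14.8 TPM. ERBB3 was thus below ERBB2 in all 3 control libraries and above it in shRBM10 A, on the TPM scale.

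**Figure D1:**
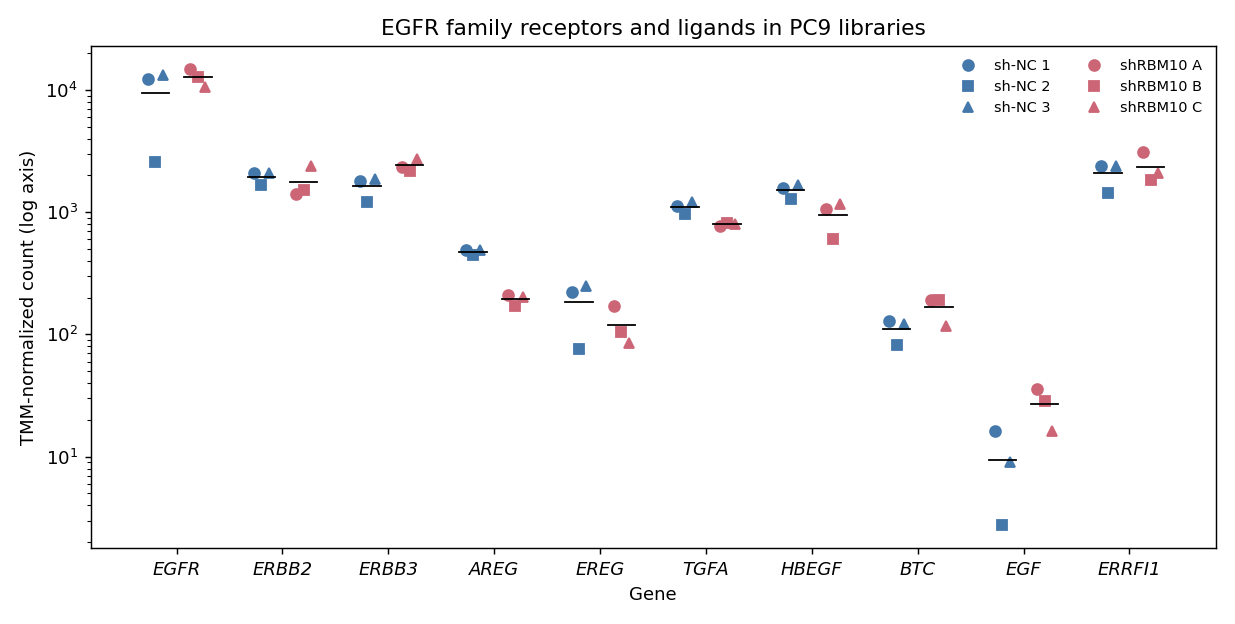
TMM-normalized counts (log axis) of the 10 genes in each library, blue for sh-NC and red for shRBM10, with black bars for group means (n = 3). AREG lies at 446 to 494 in sh-NC and 170 to 211 in shRBM10, and the lowest blue point of EGFR, at 2588, is sh-NC 2.

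A gene counted as called where its adjusted p was under 0.05 and its log2 fold change over 1 in size. In edgeR none of the 10 members was called, against 2 of 12620 genes (0.0158%). At the same fold limit and an unadjusted p under 0.05, AREG (lower) and EGF (higher) passed, 2 of 10 against 11.6% of all genes tested. AREG passed in 15 of 15 alternatives and EGF in 9 of 15. Without sh-NC 2, where 6.35% of genes passed, and with the GC trend removed, where 4.62% did, EREG (lower) passed in place of EGF. Over all genes 1272 passed upward and 193 downward, and with the GC trend removed these numbers were 263 and 307. An unadjusted p under 0.05 at any fold change was reached by 4 of 10 members, AREG, EGF, HBEGF and ERBB3, against 24.3% of all genes. DESeq2 called 1 member, AREG, against 573 of the 12129 genes to which it gave an adjusted p (4.72%). The normalized counts of the 2 groups did not overlap for 5 of 10 members, against 30.1% of genes: AREG, TGFA and HBEGF were lower in every shRBM10 library (16.2% of genes) and ERBB3 and EGF higher (13.8% of genes). Of 10 log2 fold changes 5 were above and 5 below 0, with a median of 0.015 against 0.027 over all genes. The median absolute log2 fold change was 0.58, against 0.44 over all genes. An exact permutation test of 3 libraries against 3 cannot go below p = 0.1, which AREG, TGFA, HBEGF, ERBB3 and EGF reached.

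AREG encodes amphiregulin, a low-affinity EGFR ligand whose release sustains autocrine EGFR signaling in epithelial cells. Its normalized counts were 487, 446 and 494 in sh-NC 1 to 3 and 211, 170 and 204 in shRBM10 A to C, giving means of 476 ± 25.6 and 195 ± 22.3 (SD, n = 3 libraries each). The highest shRBM10 library was below the lowest sh-NC library. In normalized counts sh-NC 2, at 91.0% of the mean of sh-NC 1 and 3, was close to the other controls. At 1240 bases AREG is in the shortest bin described above. For that bin the median log2 difference of sh-NC 2 was 0.70, against -0.135 for AREG. The part of this in the AREG result was not tested. AREG was 2.44-fold lower, a log2 fold change of -1.29 (SE 0.25, edgeR quasi-likelihood test, adjusted p = 0.108), and it ranked 57 of 12620 genes by p-value. DESeq2 gave a log2 fold change of -1.31 and an adjusted p of 0.000831, and over all alternatives the adjusted p lay between 0.000831 and 0.454, the last without shRBM10 A, where no gene was called. Without sh-NC 2 the log2 fold change was -1.41 (edgeR adjusted p = 0.0641), and with the GC trend removed it was -1.63 (edgeR adjusted p = 0.0679). On the TPM scale, where all 10 members were lower in sh-NC 2 than in the other controls, AREG stood at 17.1 in sh-NC 2 and 16.2 in shRBM10 A, so those 2 libraries were close. In bulk RNA, fewer cells that express a gene and less RNA in each cell cannot be told apart.

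The other main ligands of these cells, HBEGF and TGFA, were also lower in every shRBM10 library, by less. HBEGF encodes heparin-binding EGF-like growth factor, a ligand of EGFR and ERBB4. Its normalized counts were 1571, 1289 and 1664 in sh-NC and 1072, 604 and 1156 in shRBM10, with a log2 fold change of -0.68 (SE 0.28, edgeR adjusted p = 0.190). The lowest value was that of shRBM10 B, and shRBM10 A and C stood close below sh-NC 2. TGFA encodes transforming growth factor alpha, a high-affinity EGFR ligand. TGFA normalized counts were 1121, 969 and 1215 in sh-NC and 771, 823 and 801 in shRBM10, with a log2 fold change of -0.46 (SE 0.21, edgeR adjusted p = 0.210). The 3 shRBM10 values lay within a narrow band below the controls. Without sh-NC 2 both differences were larger, at -0.86 for HBEGF and -0.63 for TGFA, and neither passed adjustment (edgeR adjusted p = 0.146 and 0.122).

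The 3 scarcer ligands, EREG, BTC and EGF, varied more between libraries. EREG encodes epiregulin, a low-affinity EGFR ligand that also acts through ERBB4. Normalized EREG counts were 224, 76.7 and 247 in sh-NC against 169, 104 and 84.5 in shRBM10. The groups overlapped through sh-NC 2, which held 32.5% of the mean of the other 2 controls, and the log2 fold change was -0.62 (SE 0.45, edgeR adjusted p = 0.386). Without sh-NC 2, EREG was lower in all 3 shRBM10 libraries, with a log2 fold change of -1.07 (edgeR adjusted p = 0.137). BTC encodes betacellulin, a ligand of EGFR and ERBB4. Normalized BTC counts were 128, 82.2 and 121 in sh-NC and 193, 191 and 116 in shRBM10, and shRBM10 C fell among the controls. The log2 fold change was 0.59 (SE 0.32, edgeR adjusted p = 0.270), was 0.34 without sh-NC 2 and turned to -0.080 with the GC trend removed. EGF encodes epidermal growth factor itself, a high-affinity EGFR ligand. Its counts before normalization were 18, 2 and 10 in sh-NC against 35, 30 and 17 in shRBM10. The log2 fold change was 1.45 (SE 0.53, edgeR adjusted p = 0.172), and the groups were apart only by the margin between 16.32 in sh-NC 1 and 16.33 in shRBM10 C on the normalized scale. Without sh-NC 2 it was 0.996 (edgeR adjusted p = 0.221).

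EGFR itself, the mutant driver of PC9, showed no difference that passed the test. In normalized counts it stood at 12327, 2588 and 13176 in sh-NC against 14910, 12796 and 10590 in shRBM10. The log2 fold change of 0.45 (SE 0.50, edgeR adjusted p = 0.570) came with a control library, sh-NC 2, at 20.3% of the mean of the other 2. Without that library it was -0.083 (SE 0.18, edgeR adjusted p = 0.766), with 12327 and 13176 in the controls inside the range of shRBM10. Only 285 of the 12620 genes tested (2.26%) were lower in sh-NC 2 against sh-NC 1 and 3 than EGFR, whose log2 difference was -2.30. At 9821 bases its main transcript is among the longest bin described above, for which the median was -0.89. The antisense gene EGFR-AS1 lies within EGFR, and since the use of strand in counting is not given in the sources used here, reads of the 2 cannot be told apart.

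Of the partner receptors, ERBB3 had higher counts in each shRBM10 library and ERBB2 did not, and neither passed the test. The normalized counts of ERBB3 were 1798, 1212 and 1859 in sh-NC and 2329, 2164 and 2737 in shRBM10, so each shRBM10 library was above each control. The log2 fold change was 0.57 (SE 0.24, edgeR adjusted p = 0.194), and it was 0.32 without sh-NC 2 (edgeR adjusted p = 0.273). ERBB2 normalized counts were 2080, 1677 and 2101 in sh-NC and 1422, 1515 and 2373 in shRBM10, with shRBM10 C above every control and A and B below every control. Its log2 fold change was -0.14 (SE 0.26, edgeR adjusted p = 0.732), was -0.32 without sh-NC 2 and turned to 0.059 with the GC trend removed. The ratio of ERBB3 to ERBB2 counts within a library, which needs no scaling between libraries and was chosen after the values were seen, was 0.864, 0.722 and 0.885 in sh-NC and 1.64, 1.43 and 1.15 in shRBM10. It was above 1 in each shRBM10 library and below 1 in each control. The 2 genes differ in GC content of the longest transcript (52.0% for ERBB3 and 57.5% for ERBB2), and the part of that difference in the ratio was not tested.

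ERRFI1, the inhibitor of EGFR whose transcription follows EGFR signaling, overlapped between groups. It had normalized counts of 2400, 1432 and 2392 in sh-NC against 3101, 1833 and 2078 in shRBM10. The log2 fold change was 0.17 (SE 0.29, edgeR adjusted p = 0.714) and its sign changed with the library left out, to -0.12 without sh-NC 2 and -0.086 without shRBM10 A. With the GC trend removed it was -0.32.

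**Figure D2:**
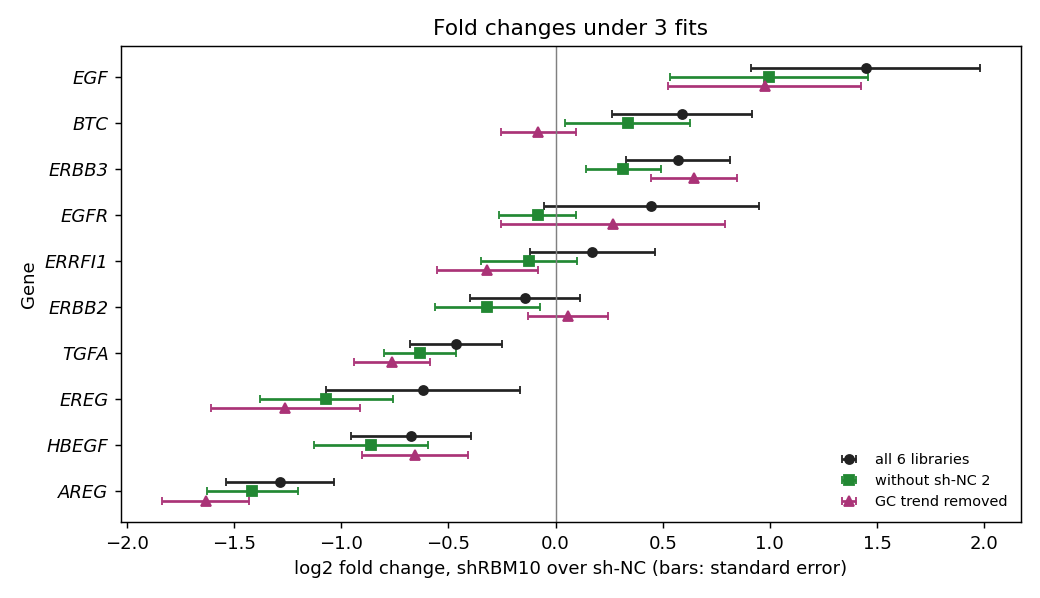
log2 fold changes of shRBM10 over sh-NC (x axis, log2 units) with standard errors for each of the 10 genes (y axis), from edgeR on all 6 libraries, without sh-NC 2, and with each library's GC trend removed. AREG lies at -1.29, -1.41 and -1.63 in the 3 fits, while EGFR, BTC, ERBB2 and ERRFI1 lie on both sides of 0.

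The separation of AREG and ERBB3 between groups held under each scaling tried. Under 5 other scalings (RLE, upper quartile, library size alone, GC trend removed, GC and length trends removed) the 2 groups did not overlap in 5 of 5 for AREG and 5 of 5 for ERBB3, in 4 of 5 for TGFA, and in 2 of 5 each for HBEGF, EGF and EREG. EGFR, ERBB2, BTC and ERRFI1 overlapped in all 5. The share of all genes whose groups did not overlap was obtained under TMM only, at 30.1%. How many other genes stayed apart under the 5 scalings is therefore not known here. With the GC trend removed the log2 fold changes of the members not yet given were -1.26 for EREG, -0.76 for TGFA, -0.66 for HBEGF, 0.65 for ERBB3, 0.98 for EGF and 0.27 for EGFR. AREG remained the lowest of the 10 and EGF the highest in that fit.

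The make-up of the ligand pool was also read within each library, as the percent that each ligand took of the summed counts of the 6 ligands, a measure chosen after the values were seen. These sums were 3911, 2093 and 4155 counts in sh-NC against 2389, 2004 and 2476 in shRBM10. AREG took 13.7%, 15.6% and 13.2% in sh-NC and 8.62%, 8.83% and 8.56% in shRBM10, a mean of 14.2% ± 1.26 against 8.67% ± 0.142 (SD, n = 3 each). The shRBM10 libraries were nearly equal in this share and all below the controls, sh-NC 2 included. BTC took 3.61%, 2.87% and 3.23% in sh-NC and 7.87%, 9.93% and 4.89% in shRBM10, all above the controls. TGFA took 31.6% to 33.8% in sh-NC and 31.4% to 42.9% in shRBM10. HBEGF took 44.3% to 45.0% and 31.4% to 48.6%, so the 2 largest ligands overlapped in share. Counts were not divided by transcript length, so a share is not comparable between ligands. The ligands also differ in length and GC content of the longest transcript (AREG 1240 bases and 45.3%, EREG 4619 and 36.1%, BTC 2816 and 40.2%). Shares can therefore carry the length and GC trends of single libraries described above, and that part was not tested.

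**Figure D3:**
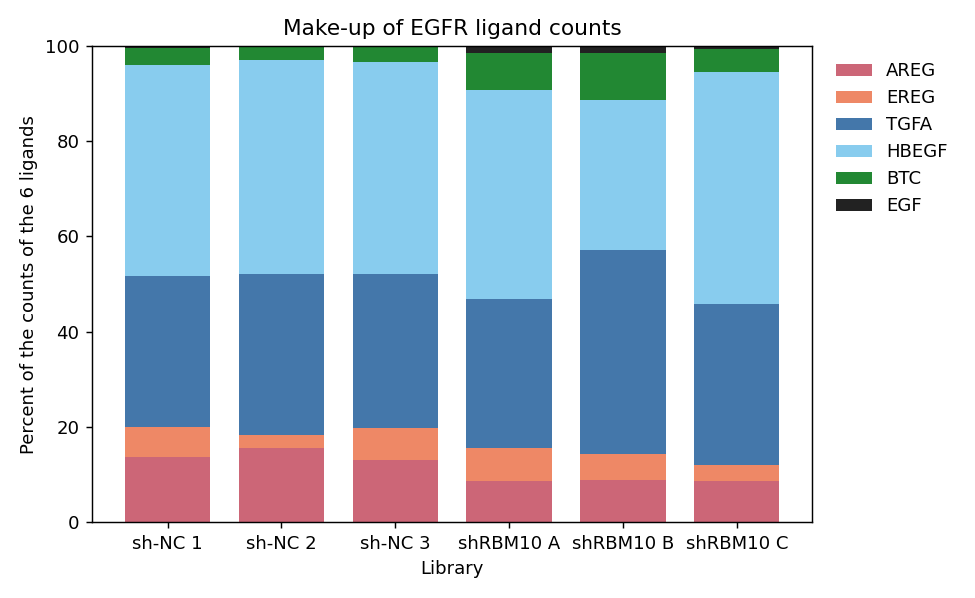
Percent of the summed estimated counts of AREG, EREG, TGFA, HBEGF, BTC and EGF (y axis) that each ligand took in each library (x axis). The AREG segment spans 13.2% to 15.6% in sh-NC and 8.56% to 8.83% in shRBM10.

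AREG, EREG, BTC and the related ligand EPGN lie in 1 cluster on chromosome 4, which spans 486 kb (GRCh38, GENCODE 29 gene bounds). EPGN is at chr4:74308473-74315307, EREG at chr4:74365143-74388751 and AREG at chr4:74445134-74455009, all on the plus strand, and BTC is at chr4:74744759-74794686 on the minus strand, 290 kb beyond AREG. The 3 neighbours on the plus strand had log2 fold changes below 0, EPGN at -0.67 (SE 0.35, edgeR adjusted p = 0.246), EREG at -0.62 and AREG at -1.29. That of BTC was 0.59. EREG overlapped between groups, and EPGN had only 15 to 34 counts in a library. With the GC trend removed the values were -1.38 for EPGN, -1.26 for EREG, -1.63 for AREG and -0.080 for BTC. EGF, at chr4:109912884-110012266, is on the same chromosome outside the cluster. The other members lie apart: EGFR at chr7:55019021-55211628, ERBB2 at chr17:39687914-39730426, ERBB3 at chr12:56076799-56103505, HBEGF at chr5:140332843-140346631, TGFA at chr2:70447280-70554193 and ERRFI1 at chr1:8004404-8026308.

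The 250 bases before the annotated start are shown for AREG, for its neighbour EREG, and for HBEGF, which was lower with AREG, so that the 3 upstream sequences can be compared. This set is a choice. TGFA was also lower in every shRBM10 library and its windows are not shown, while EREG overlapped between groups. They are from RefSeq on GRCh38.p14, read 5′ to 3′ on the strand of the gene. Capitals mark a full cyclic AMP response element (TGACGTCA), an AP-1 site (TGANTCA) or a TATA box (TATAAA), searched on both strands.
AREG (chr4:74444886-74445135, plus strand): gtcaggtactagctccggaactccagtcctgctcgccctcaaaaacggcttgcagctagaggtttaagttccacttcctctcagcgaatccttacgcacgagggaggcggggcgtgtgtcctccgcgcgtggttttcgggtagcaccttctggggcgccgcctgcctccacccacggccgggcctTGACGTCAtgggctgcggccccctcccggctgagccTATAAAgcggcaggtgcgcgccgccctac
EREG (chr4:74364895-74365144, plus strand): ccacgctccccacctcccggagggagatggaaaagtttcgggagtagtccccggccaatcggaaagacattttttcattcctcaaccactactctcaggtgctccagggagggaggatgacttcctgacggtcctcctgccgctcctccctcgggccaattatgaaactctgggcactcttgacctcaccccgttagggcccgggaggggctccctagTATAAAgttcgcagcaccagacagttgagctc
HBEGF (chr5:140346604-140346853, minus strand): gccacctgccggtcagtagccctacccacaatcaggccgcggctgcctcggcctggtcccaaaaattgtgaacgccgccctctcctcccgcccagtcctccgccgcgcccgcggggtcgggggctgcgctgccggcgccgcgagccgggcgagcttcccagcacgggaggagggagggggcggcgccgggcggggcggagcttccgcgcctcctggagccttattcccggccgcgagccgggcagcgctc
AREG held 1 cyclic AMP response element, which begins 65 bases before the start, and 1 TATA box beginning 29 bases before it. Of the 11 windows found for 9 of the 10 members, AREG's alone held the full response element, which 1.65% of 35116 windows of this length in the table held. EREG held a TATA box 32 bases before its start, as did 10.7% of windows at some position, and BTC and HBEGF matched none of the 3 patterns in these letters. GC boxes (GGGCGG), which are not marked in the sequences, numbered 5 in HBEGF, 1 in AREG and 0 in EREG. Among the other members 1 window of TGFA held 3, the upstream window of EGFR 2 and that of ERRFI1 1. Over all windows 42.6% held at least 1. The downstream EGFR window held 2 TATA boxes. An AP-1 match was found in the windows of EGF and ERBB2 and in the downstream EGFR window, and in 6.57% of all windows, and the E-box CACGTG, in 6.34% of all windows, was found in none of the members. A match of letters is a description and not a sign of binding.

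At the level of transcripts, no member showed a shift in usage that passed the test. The edgeR test for differential transcript usage called 8 of 8348 genes with more than 1 tested transcript (0.0958%), and 0 of the 6 members that could be tested, EGFR, ERBB2, ERBB3, TGFA, BTC and ERRFI1. AREG, EREG and HBEGF have 1 transcript with counts each, and EGF had too few counts. For EGFR the full-length transcript NM_005228 took 91.8%, 96.6% and 94.4% of the estimated counts in sh-NC against 78.3%, 75.9% and 96.2% in shRBM10. The transcript NM_001346900 took 5.73%, 0.0085% and 5.19% in sh-NC against 14.4%, 20.7% and 2.03% in shRBM10. The libraries shRBM10 A and B thus differed from the controls and shRBM10 C did not, and the test gave a Simes p of 0.487 and an adjusted p of 1.00. How reads divide between transcripts with long shared stretches is an estimate of the counting tool.

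The short EGFR transcript NM_201283 (1570 bases), which ends early and encodes a secreted receptor fragment, and the short ERBB3 transcript NM_001005915 (1027 bases), also truncated, allowed a look at sh-NC 2 within a gene. NM_201283 had 27.7, 27.0 and 42.7 estimated counts in the controls 1 to 3, while NM_005228 of the same gene had 12474, 1825 and 13790. NM_001005915 had 52.8, 56.1 and 42.1, while the long ERBB3 transcript NM_001982 (5919 bases) had 1930, 829 and 2018. These 2 short transcripts were picked after their values were seen and hold few counts, so the values are a description of them alone. The EGFR transcripts NM_001346900 and NM_001346941, for which no length was found, were also lower in sh-NC 2 than the mean of sh-NC 1 and 3, although NM_001346941 was at 0 in sh-NC 3.

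TGFA was divided between a pair of transcripts that differ by 3 bases in the stretch they share. These bases are in capitals below, with 12 bases on either side, because the pair can be told apart within the shared stretch only by reads that cover them (GENCODE 29 sequences matched to the RefSeq names). The sequence of NM_003236 is also longer at both ends in that annotation, at 4310 against 1225 bases.
NM_003236: tccccgctgagtGCAgacccgcccgtg
NM_001099691: tccccgctgagtgacccgcccgtg
NM_003236 took 61.2%, 57.2% and 55.2% of the TGFA counts in sh-NC against 74.5%, 65.6% and 36.9% in shRBM10, so the shRBM10 libraries lay on both sides of the controls. The Simes p was 0.999, and 0.0309 without shRBM10 C (adjusted p = 0.962). ERBB2 was spread over 28 transcripts with counts, none with more than 18.8% in any library. In ERRFI1 the transcript NM_018948 took 90.0% to 94.3% in every library.

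**Figure D4:**
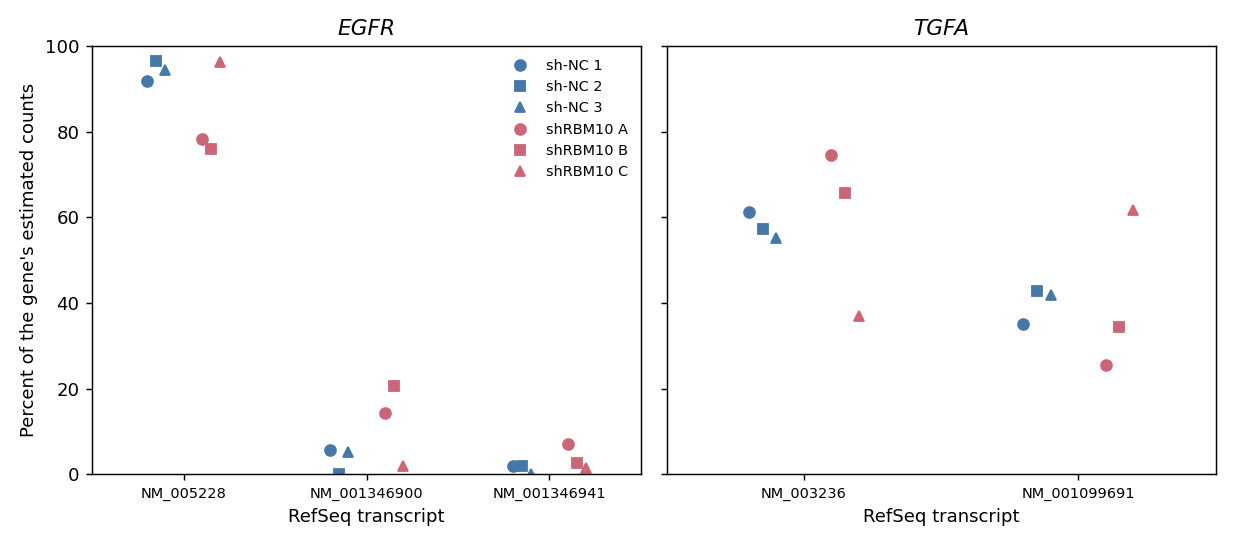
Percent of the estimated counts of EGFR (left) and TGFA (right) assigned to each RefSeq transcript (x axis) in each library, blue for sh-NC and red for shRBM10. The EGFR transcript NM_005228 took 78.3% and 75.9% in shRBM10 A and B and 91.8% to 96.6% in the other 4 libraries.

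The genes most like AREG over the 6 libraries, by the root mean square difference of log2 levels each centred on its own mean, were WSCD1 (0.092), CDCA7 (0.11) and the knocked-down gene RBM10 (0.13), out of 11070 genes compared. Those most like EGFR were TRIO (0.054), FOXO3 (0.076) and TET3 (0.11). TRIO, which encodes a guanine nucleotide exchange factor, had normalized counts of 1772, 396 and 1868 in sh-NC and 2134, 1972 and 1637 in shRBM10, so it was low in sh-NC 2 as EGFR was. WSCD1 had 594, 648 and 645 in sh-NC and 286, 228 and 301 in shRBM10, with sh-NC 2 beside the other controls. AREG was the member of smallest p, so genes with a like difference between groups come out near it by this measure. Log2 fold changes were -1.21 for WSCD1, -1.26 for CDCA7 and -1.24 for RBM10. The likeness of RBM10 and AREG is thus no result apart from those differences.

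Other ligands and receptors of the family were scarce. Of 6 further genes, ERBB4, NRG1, NRG2, NRG3, NRG4 and EPGN, NRG3 had no row and 3 were tested, with 0 past the unadjusted limits. EPGN, the gene of epigen, had 34, 28 and 30 counts in sh-NC against 20, 26 and 15 in shRBM10. NRG1, whose product binds ERBB3 and ERBB4, had 27, 15 and 32 counts in sh-NC against 22, 13 and 15 in shRBM10 (log2 fold change -0.59, SE 0.36, edgeR adjusted p = 0.312). NRG4 had 4 to 18 counts over all libraries, and NRG2 and ERBB4 had at most 4 counts and 1 count.

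Genes that act around the receptors were read from 4 further lists, chosen with earlier results of these data known. As background, 11.6% of all genes were past the unadjusted limits in the fit of all libraries and 6.35% without sh-NC 2. In the list for ligand shedding and trafficking, all 14 genes were tested, 2 were past the limits, both higher in shRBM10, and the median log2 fold change was -0.094. These were ADAM10 (log2 fold change 1.40, SE 0.49, edgeR adjusted p = 0.169), a sheddase of EGF and BTC, and ADAM9 (1.16, edgeR adjusted p = 0.183). ADAM10 normalized counts were 552, 149 and 526 in sh-NC and 1346, 1338 and 566 in shRBM10, with shRBM10 C next to the controls. ADAM9 overlapped between groups, with shRBM10 C at 1563 and sh-NC 1 at 1747. Without sh-NC 2 none of the 14 was past the limits, with ADAM10 at 0.92 and ADAM9 at 0.69. With the GC trend removed ADAM10 was at 0.71 and ADAM9 at 0.46, and the median of the list was 0.040. The others of the 4 genes of smallest p in this list were ADAM15 (-0.65, edgeR adjusted p = 0.187) and NKD2 (-0.73, edgeR adjusted p = 0.208). ADAM17, the main sheddase of AREG, TGFA and HBEGF, was not among those 4 and was not past the limits. Its level and direction are not given here.

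In the list of adaptors and signal relays 3 of 33 genes were past the limits, SOS2, PIK3CA and PIK3R1, all higher, with a median of 0.14, and without sh-NC 2 there were 0, with a median of -0.080. The smallest p values belonged to HRAS (log2 fold change -0.84, SE 0.26, edgeR adjusted p = 0.156), the GTPase switched on by SOS, and SRC (-0.68, edgeR adjusted p = 0.170), both lower in every shRBM10 library. SOS2, an exchange factor for RAS, had a log2 fold change of 1.51 and PIK3CA, the catalytic PI3K subunit, 1.24 (edgeR adjusted p = 0.172 and 0.182). In shRBM10 C their normalized counts were 129 and 111, near the 110 and 132 of sh-NC 1, and PIK3CA overlapped between groups. Without sh-NC 2 the log2 fold changes were 0.98 and 0.79. With the GC trend removed they were 0.86 for SOS2, 0.57 for PIK3CA, -0.50 for HRAS and -0.44 for SRC.

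In the list for receptor endocytosis, ubiquitination and dephosphorylation 6 of 35 genes were past the limits, all higher, with a median of 0.16. Without sh-NC 2 there were 2 of 35, EPS15 and CLTC, against 6.35% of all genes. EPS15, a clathrin adaptor of EGFR uptake, had a log2 fold change of 1.49 (SE 0.41, edgeR adjusted p = 0.153), CLTC, the clathrin heavy chain, 1.61 (SE 0.50, edgeR adjusted p = 0.156), and HSP90AA1, a chaperone of ERBB2 and mutant EGFR, 1.17 (SE 0.34, edgeR adjusted p = 0.153). DESeq2 called these 3 of 35 (adjusted p = 0.0191, 0.0299 and 0.0285), against 4.72% of the genes to which it gave an adjusted p. LRIG2 had a log2 fold change of 1.12 (edgeR adjusted p = 0.158). For EPS15, CLTC, HSP90AA1 and LRIG2, shRBM10 C was the knockdown library nearest the controls. Normalized counts of EPS15 were 414, 240 and 370 in sh-NC and 1473, 964 and 448 in shRBM10. CLTC overlapped between groups, at 1502, 448 and 1323 in sh-NC and 4783, 3757 and 1471 in shRBM10. With the GC trend removed the values were 0.71 for EPS15, 0.97 for CLTC, 0.76 for HSP90AA1 and 0.48 for LRIG2, all under the fold limit.

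In the list of genes whose transcription follows ERK activity, 20 of 21 were tested and 1 was past the limits, FOSL1. The median log2 fold change was -0.23, against 0.027 over all genes. Of the 20 log2 fold changes 13 were below 0, a share that was not obtained over all genes. FOSL1, an AP-1 subunit, had normalized counts of 1482, 1584 and 1419 in sh-NC and 548, 523 and 681 in shRBM10. Its log2 fold change was -1.36 (SE 0.22, edgeR adjusted p = 0.0892). DESeq2 called FOSL1 alone in this list, 1 of 20 against 4.72% of the genes to which it gave an adjusted p. Like AREG, FOSL1 had sh-NC 2 beside the other controls in normalized counts and all shRBM10 libraries below. EMP1 (-0.91), MYC (-0.88) and ETV4 (-0.78) were lower in every shRBM10 library and did not reach the fold limit (edgeR adjusted p = 0.153 for each). Without sh-NC 2, 3 of 20 genes of this list were past the limits, all lower (FOSL1, MYC and EPHA2). In that fit 6.35% of all genes were past them in either direction and 1.54% downward. Since the list was chosen with earlier results of these data known, these shares are a description only. With the GC trend removed the values were -1.09 for FOSL1, -1.49 for EMP1, -0.74 for MYC and -0.50 for ETV4.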

How the data were processed

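RNA of 6 PC9 libraries was sequenced by a service provider. The authors deposited estimated counts per gene and per RefSeq transcript, which need not be whole, and TPM, FPKM and normalized counts beside them. The build was hg38 per the labels, and the aligner, counting tool and annotation are not given in the sources used here. The columns shRBM10 B and C match no single sample of the labels by name. They were assigned to the shRBM10 group from the part of the name that marks it, with only their estimated counts used, and every shRBM10 mean rests on that assignment. Not used were 14 per-library columns of gene values and 18 of transcript values, and the authors' group means.

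Estimated counts were rounded, filtered with filterByExpr, normalized by TMM and tested with the quasi-likelihood test of edgeR 4.0.16 (limma 3.58.1, R 4.3.3) over all 6 libraries with no covariate. Standard errors are the absolute log2 fold change over the square root of F. Normalized counts are counts divided by the effective library size relative to its mean. A call needed an adjusted p (Benjamini-Hochberg) under 0.05 with a log2 fold change over 1 in size. Transcript usage was tested with diffSpliceDGE and called at a Simes adjusted p under 0.05. The deposited TPM values were used as levels only, with no test. Alternatives were DESeq2 1.42.0, limma-voom, RLE, upper-quartile and library-size scaling, other count filters, removal of each library's loess trend on GC content (97.8% of tested genes had a value in GENCODE 29), and leaving out each library. Removal of GC and length trends together was added after seeing the data. Only the main edgeR fit and the transcript usage test were tried on simulated data. Those data had the same spread in every library and no GC or length trend, unlike the libraries here. The number of libraries and counts limits precision, and intervals across PCR reads without molecular identifiers would cover counting error only.

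The members and the lists were chosen with earlier results of these data known. Named were every member, RBM10, all other ERBB receptors and ligands, up to 4 genes of smallest p in each further list, transcripts with at least 5% of a member's counts in either group, the 3 genes (mean count at least 50) most like EGFR and most like the member of smallest p, and markers. The gene PIK3R1, the short transcripts of EGFR and ERBB3, ADAM17 and EPHA2 were named after their values were seen.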

Additional observations from a re-analysis of the deposited data

How the results depend on the processing

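No paired analysis was possible because only 1 shRBM10 column carries a replicate number, so the groups share fewer than 2 numbers and no replicate block could be fitted. DESeq2 called 1 member (AREG, log2 fold change -1.31) and RBM10 (-1.26), against 0 members by edgeR, and called 573 genes against 2. The genes called numbered 0 with library size only, 31 with no filter on low counts, 5 with the GC trend removed, 97 with GC and length trends removed, and 0 to 23 when each library was left out. Without sh-NC 2, RBM10 was called (-1.42, edgeR adjusted p = 0.0487). Members past the unadjusted limits numbered 1 with at least 10 counts in every library, which removes EGF, and 1 to 2 when each library was left out, EGF no longer passing without shRBM10 A, without shRBM10 B and without sh-NC 2. Without sh-NC 2, with the GC trend removed and with both trends removed EREG passed in its place. All genes past those limits numbered 570 with the GC trend and 554 with both trends removed, 813 without sh-NC 2, 574 without shRBM10 A and 574 to 2143 when each library was left out, against 1465. Members whose groups did not overlap numbered 2 with library size only, 4 or 5 under the other scalings and 5 to 7 when each library was left out. The share over all genes was not obtained for these settings. With a library left out fewer values have to stay apart, so those numbers are not comparable with that of all 6 libraries. Library size only moved the median of all genes from 0.027 to 0.16.

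With the GC trend removed the sign turned for ERBB2 (0.059), BTC (-0.080) and ERRFI1 (-0.32), and with GC and length trends removed for ERBB2 (0.0069), BTC (-0.0023) and ERRFI1 (-0.27). When each library was left out, EGFR lay between -0.083 and 0.77 and ERRFI1 between -0.12 and 0.32, and AREG between -1.20 and -1.41. AREG, EREG, TGFA and HBEGF stayed below 0 and ERBB3 and EGF above 0 in every alternative that gave them a value. Transcript usage called 0 members under all 8 alternatives. The cause of these changes was not tested. With 3 libraries a group and EGF at 2 to 35 counts, small differences were not detectable.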
